A study of Mus musculus with 11 samples.

Results

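The 10 genes described here encode the core of JAK-STAT signalling and its feedback loop: the shared cytokine receptor subunit Il6st, the kinases Jak1 and Jak2, the transcription factors Stat3, Stat5a, Stat5b and Stat6, and the inhibitors Socs2, Socs3 and Cish. They were chosen by name and matched to the Entrez gene identifiers of the count table, where all 10 were found among 27179 identifiers. RNA was sequenced from pubertal mouse mammary epithelium, from terminal end buds (TEBs), the bulbous tips that drive growth of the ductal tree, and from the ducts behind them. Every animal was a 5-week-old C57BL/6 female carrying an Ecadherin-GFP knock-in reporter, with no treatment named, and GFP guided the dissection. Basal cells were sorted as Lin-CD29+CD24+ cells with low Ecad-GFP and luminal cells as Lin-CD29+CD24+ cells with high Ecad-GFP, which gave 4 groups: basal duct (n = 3), basal TEB (n = 3), luminal duct (n = 2, replicates 1 and 3) and luminal TEB (n = 3). Each replicate pooled at least 2 mice, so the spread between libraries is a spread between pools. Because the gate used E-cadherin, the level of its gene is no finding between the sorted layers.

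Cytokines and hormones of this pathway bind receptors that have no kinase of their own. The receptors bring JAK kinases together, the JAKs phosphorylate STAT proteins, and paired STATs enter the nucleus and bind DNA. Among the genes they switch on are the Socs genes and Cish, whose proteins block the receptors and JAKs and so close a negative feedback loop. In the mammary gland, prolactin acts through Jak2 and Stat5a on alveolar differentiation and milk protein genes, and cytokines that use Il6st act through Stat3 on involution after weaning. Transcript levels do not show whether the proteins are phosphorylated, and no phosphorylation was measured here.

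The libraries held between 27989137 and 49221436 counts, and the lowest count of any of the 10 genes in any library was 296, so none was near the limit of detection. Values are counts as a share of the library total (CPM), scaled by the trimmed mean of M-values (TMM), and a call is a false discovery rate (FDR) under 0.05 in edgeR over the 17370 genes tested. Mitochondrial transcripts took 37.5% of counts in basal TEB replicate 1, 28.5% in luminal duct replicate 3 and 17.8% in basal TEB replicate 3, against 4.34% to 10.9% in the other 8 libraries. The sorted layers carried their markers: 7 basal markers such as Krt5 and Krt14 summed to between 5342 and 19176 CPM in basal libraries and to between 14.7 and 248 CPM in luminal ones. The 5 luminal markers such as Krt8 and Krt18 summed to between 11042 and 16605 CPM in luminal libraries and to between 529 and 806 CPM in basal ones. These 5 include Cdh1, the E-cadherin gene of the sorting gate, so their sum is not fully independent of the gate. In bulk RNA of this kind, fewer cells of a type and less RNA per cell cannot be told apart.

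Dimerised STATs bind a palindromic element, the gamma-activated sequence, written TTCNNNGAA, which reads the same on both strands. It was the one motif searched, in the 300-base RefSeq windows (GRCm38.p6) around annotated transcription starts, and it occurred in 8.3% of 32851 windows. Windows were given for 9 of the 10 genes, with none for Socs2, and of their 11 windows those of Cish and Socs3 held the motif. Both genes are feedback inhibitors whose transcripts fell in basal TEBs, so the stretches that carry the matches are shown with the motif in capitals. Cish held a pair of matches, at positions 0 and 11 counted from the annotated start, on the plus strand at chr9:107296599-107296686. Socs3 held a single match at position -154, on the minus strand at chr11:117969452-117969580. The start of this Socs3 window lies inside the RefSeq span of the gene, which reaches further upstream, so the stretch shown is within the annotated gene. A match is a description of the letters in the window and not evidence of binding.
Cish window stretch: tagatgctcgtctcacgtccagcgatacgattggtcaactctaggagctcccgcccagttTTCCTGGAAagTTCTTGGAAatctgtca
Socs3 window stretch: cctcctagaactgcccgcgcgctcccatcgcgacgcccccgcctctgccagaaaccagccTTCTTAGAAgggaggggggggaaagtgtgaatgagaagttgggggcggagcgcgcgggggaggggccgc

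Stat5b, Stat5a and Stat3 lie next to each other on chromosome 11 (GRCm38), at chr11:100780731-100859004 on the minus strand, chr11:100859351-100885169 on the plus strand and chr11:100886806-100939594 on the minus strand. In the GENCODE annotation the exons of Stat3 and Stat5a share 72 bases, which is 0.756% of the exon bases of Stat3 and 1.01% of those of Stat5a. Stat5a and Stat5b are close paralogs, so reads of their most similar stretches may have been split between them. Cish, at chr9:107296659-107302784, shares 7.46% of its exon bases with Gm17041, an antisense gene, and 4.07% with the pseudogene Gm17040. The library kit named in the study's methods does not mark strand, so reads over these shared bases cannot be told apart. The other members lie at chr11:117966079-117970336 (Socs3), chr10:95383903-95417321 (Socs2), chr10:127642955-127660987 (Stat6), chr13:112464070-112506860 (Il6st), chr19:29251803-29313095 (Jak2) and chr4:101151974-101265282 (Jak1).

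On a scale that also divides by gene length (RPKM, counted per kilobase), Socs3 was the most abundant of the 10 transcripts in every group. Basal duct held 375 ± 41.0 RPKM (mean ± SD over 3 libraries), luminal duct 173 ± 33.4 (2 libraries), luminal TEB 155 ± 24.0 (3 libraries) and basal TEB 87.5 ± 27.8 (3 libraries). Stat3 was the next most abundant in basal duct at 78.6 ± 14.8 RPKM, in basal TEB at 48.4 ± 4.62 RPKM and in luminal TEB at 88.9 ± 3.28 RPKM. In luminal duct Stat5a stood above Stat3 by its mean, at 96.9 ± 54.2 against 86.3 ± 18.2 RPKM, but their library ranges overlapped. Socs3 did not overlap the gene ranked after it in any group. Below Stat3 the neighbours in the order mostly overlapped, and in basal TEB every gene from Il6st, at 20.7 ± 4.36 RPKM, down to Stat5b, at 9.86 ± 1.48 RPKM, overlapped its neighbour. Socs2 was last in both luminal groups, at 7.14 ± 3.03 RPKM in luminal duct and 4.74 ± 1.91 RPKM in luminal TEB.

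**Figure D1:**
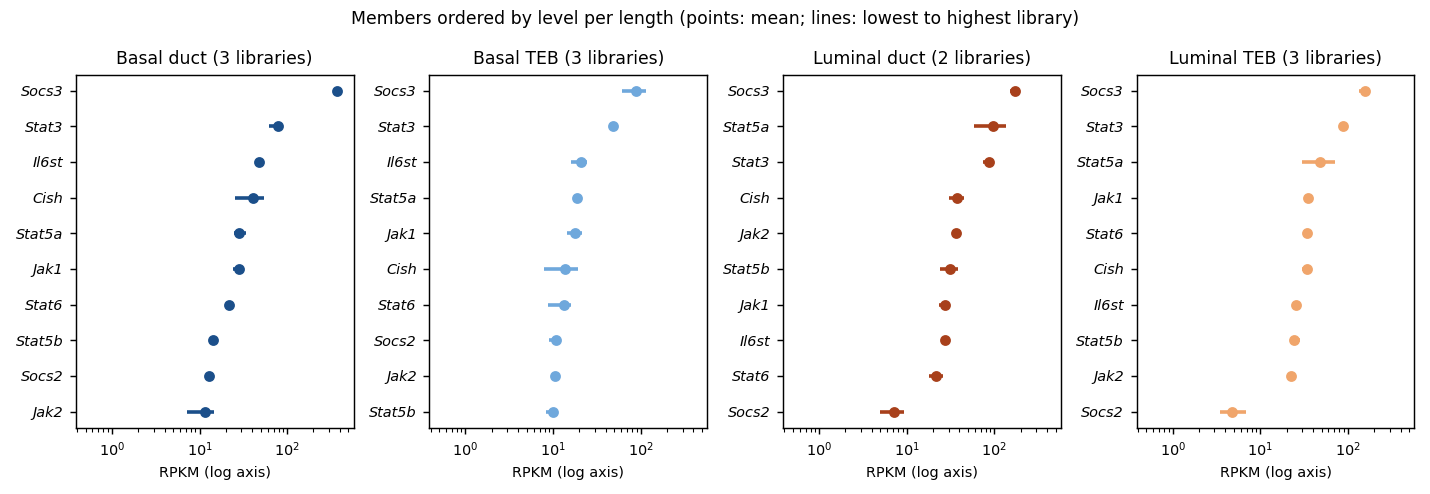
RPKM of each member on a log axis, ordered within each of the 4 groups. Points are means and lines run from the lowest to the highest library (2 libraries in luminal duct and 3 in the others). Socs3 leads every panel, and most genes below Stat3 overlap a neighbour.

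The first question was whether the pathway's transcripts differed between the growing tips and the ducts within basal cells. Socs3, Il6st and Cish fell in basal TEBs, and the fitted log2 fold changes of all 10 genes were negative, with a median of -0.67 against -0.03 over all genes tested. Of all genes tested, 1.16% were called lower and 0.167% higher in this comparison, and 3 of the 10 members were called lower and none higher. The TEB libraries lay entirely below the duct libraries for 8 of the 10 members, where 11.9% of all genes tested lay entirely below and 8.88% entirely above.

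Il6st encodes gp130, the signalling chain shared by the receptors for interleukin 6, leukemia inhibitory factor and oncostatin M. Its level was 261, 265 and 252 CPM in the basal duct libraries and 116, 134 and 87.3 CPM in the basal TEB libraries. The groups were far apart, and the duct libraries were close to each other. The log2 fold change was -1.20 ± 0.17 (SE, FDR 0.00628), a 2.30-fold lower level in TEBs.

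Socs3, which binds gp130 receptors and inhibits the attached JAKs, had the largest change of the 10. It measured 904, 1125 and 1043 CPM in basal duct and 167, 318 and 233 CPM in basal TEB. Every TEB library was below every duct library, with a log2 fold change of -2.10 ± 0.25 (FDR 0.00225), or 4.28-fold lower. Cish, an inhibitor induced by Stat5 that acts on receptors for growth hormone, prolactin and related cytokines, measured 116, 94.7 and 54.8 CPM in duct and 17.1, 42.0 and 30.4 CPM in TEB. These groups did not overlap either, but the spread within each was wide relative to its mean. Its log2 fold change was -1.57 ± 0.34 with an FDR of 0.0496, just under the threshold. That call was lost without any 1 of basal duct replicates 1 and 2, basal TEB replicates 1 and 3 and luminal TEB replicates 1, 2 and 3, with FDRs of 0.195, 0.162, 0.117, 0.206, 0.0843, 0.0816 and 0.092, and it held in 10 of 24 alternatives. Socs3 and Il6st held in 23 of 24, the exception being scaling by library size alone (FDR 0.0506 and 0.106). Without basal TEB replicate 1 and luminal duct replicate 3, the libraries with the highest mitochondrial shares, 2 members were called lower in basal TEBs.

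Socs2, the SOCS family member best known for restraining growth hormone signalling, did not share this pattern. It measured 34.7, 37.8 and 31.3 CPM in basal duct and 30.8, 24.0 and 32.4 CPM in basal TEB, with overlapping groups and a log2 fold change of -0.25 ± 0.33 (FDR 0.787). The ratio of Socs3 to Socs2 in RPKM was accordingly between 25.7 and 32.9 in the basal duct libraries and between 5.34 and 13.1 in the basal TEB libraries.

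The kinases and STATs gave smaller negative values in basal cells, none past the threshold. Jak1, the kinase most used by gp130 and interferon receptors, measured 157, 158 and 128 CPM in duct and 89.4, 113 and 77.3 CPM in TEB (log2 fold change -0.66 ± 0.18, FDR 0.121). Jak2, the kinase of the prolactin and growth hormone receptors, overlapped between groups at 36.0, 73.2 and 63.9 CPM against 54.9, 56.6 and 47.3 CPM (-0.12 ± 0.23, FDR 0.867). Jak1 thus separated the groups and Jak2 did not. Stat3 measured 384, 398 and 276 CPM in duct and 237, 219 and 195 CPM in TEB (-0.70 ± 0.19, FDR 0.111). Stat6, which relays interleukin 4 and 13, measured 78.7, 82.7 and 85.3 CPM in duct and 33.0, 61.2 and 59.4 CPM in TEB (-0.68 ± 0.23, FDR 0.203). For Stat3 and Stat6 the groups did not overlap, and their FDRs were above 0.05. Stat5a (-0.57 ± 0.34, FDR 0.471) and Stat5b (-0.52 ± 0.21, FDR 0.287) were also lower in every TEB library than in every duct library without passing the test. In all, 7 of the 10 members had an unadjusted p under 0.05 in this comparison, against 14.5% of all genes tested. The likelihood ratio test of edgeR and the Wald test of DESeq2 each called 5 members, adding Jak1 and Stat3. They also called more genes of all 17370 tested, 707 and 874 against 230 by the main test. Leaving out basal TEB replicate 2 brought Jak1 to an FDR of 0.0377.

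Other measures moved with this comparison. The 5 luminal markers summed to between 707 and 806 CPM in basal duct and to between 529 and 538 CPM in basal TEB, with 1 of 5 called lower. A list of 10 immediate early and stress response genes, such as Fos, Jun and Egr1, summed to between 14552 and 20425 CPM in basal duct and to between 5930 and 8373 CPM in basal TEB, with 5 of the 10 called lower and none at 0 in any library. The 7 basal markers summed to between 15553 and 19176 CPM in duct and to between 5342 and 8297 CPM in TEB, with 4 of 7 called lower. The 6 fibroblast markers summed to between 430.2 and 840 CPM in duct and between 226 and 406 CPM in TEB, the 6 immune markers to between 11.4 and 82.1 CPM and between 0.115 and 13.8 CPM, and the 5 endothelial markers to between 10.7 and 189 CPM and between 3.19 and 38.3 CPM, with no member of these 3 lists called by edgeR. The 5 adipocyte markers summed to between 8.78 and 11.7 CPM and between 2.14 and 7.62 CPM, with Adipoq at 0 in each duct library. Tyrobp, an immune marker, was at 0 in 2 of the 3 duct and 2 of the 3 TEB libraries. The part of these differences in the result was not tested.

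**Figure D2:**
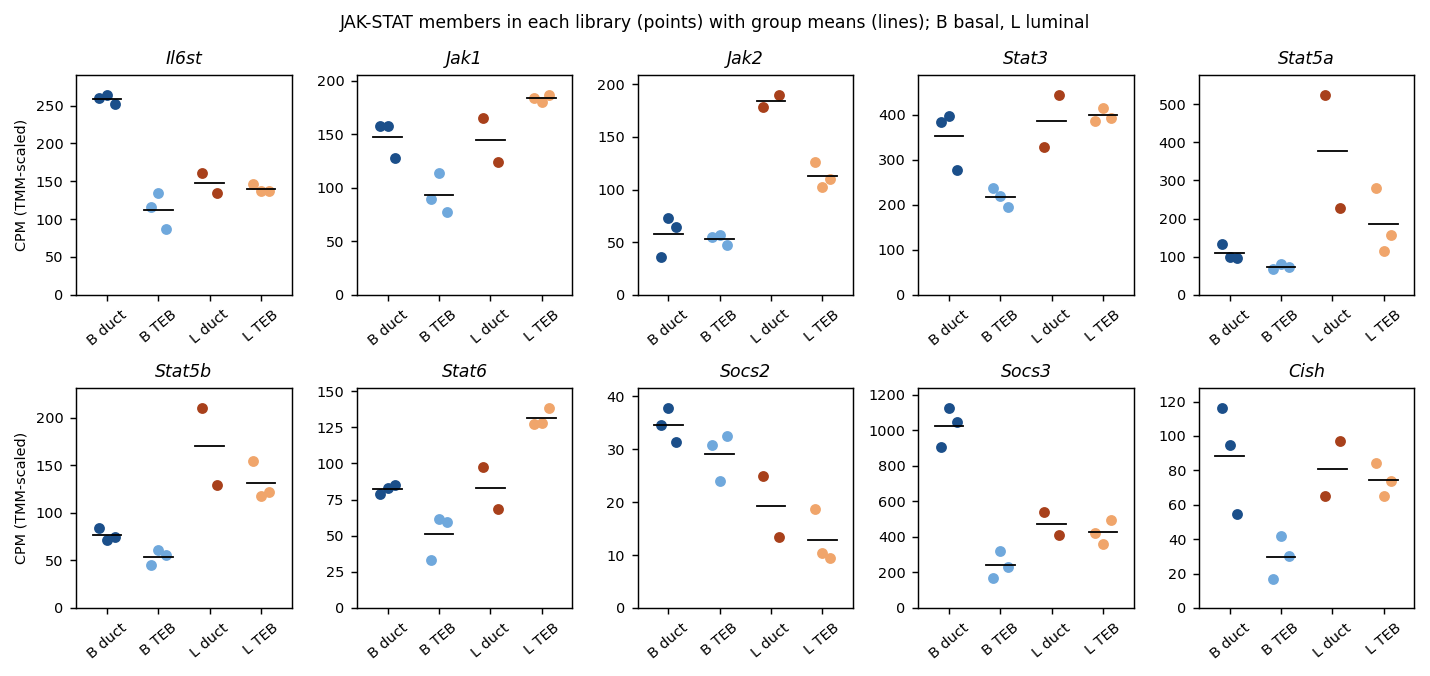
TMM-scaled CPM of the 10 members in each library, with each panel's axis starting at 0. Points are libraries and lines are group means (B basal, L luminal; 2 libraries in luminal duct and 3 in the others). The basal TEB libraries of Il6st, Socs3 and Cish lie below all basal duct libraries, while those of Jak2 and Socs2 overlap them.

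In luminal cells the same comparison called none of the 10 members by edgeR's quasi-likelihood test, with 3 at an unadjusted p under 0.05, and the likelihood ratio test, DESeq2, limma voom and the other alternatives also called none. Over all genes tested, 0.639% were called higher and 0.771% lower, and 16.6% had an unadjusted p under 0.05. Members ranged from -1.03 to 0.66 on the log2 scale, with a median of -0.14 against 0.04 over all genes tested. The TEB libraries lay entirely above the duct libraries for Jak1 and Stat6 and entirely below for Jak2, where 26.2% and 17.4% of all genes tested did so with these 3 and 2 libraries.

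Socs3, Cish and the receptor Il6st gave small fitted values between the luminal groups. Socs3 measured 538 and 409 CPM in luminal duct and 421, 361 and 492 CPM in luminal TEB (-0.16 ± 0.27, FDR 0.811). Cish measured 64.9 and 96.9 CPM in duct and 84.5, 65.2 and 73.7 CPM in TEB (-0.12 ± 0.37, FDR 0.913). Il6st measured 160.4 and 134 CPM in duct and 147, 137 and 137 CPM in TEB (-0.07 ± 0.19, FDR 0.895). All 3 genes overlapped between the groups. Their fitted values are smaller than their standard errors, and at this number of libraries differences of that size were not detectable.

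Jak2 measured 179 and 190.4 CPM in luminal duct and 126, 102 and 110.1 CPM in luminal TEB, without overlap (-0.71 ± 0.25, FDR 0.188). Stat6 went the other way, from 97.7 and 68.7 CPM in duct to 127, 128 and 138 CPM in TEB (0.66 ± 0.26, FDR 0.229). Jak1 measured 165 and 124 CPM in duct and 184, 179.9 and 187 CPM in TEB (0.35 ± 0.21, FDR 0.41). The TEB libraries of Jak1 and Stat6 lay above both duct libraries, and neither gene passed the test. Stat5a, the STAT of alveolar differentiation, varied widely among luminal libraries, at 526 and 228 CPM in duct and 279.6, 116 and 157 CPM in TEB (-1.03 ± 0.37, FDR 0.195). Without luminal duct replicate 1 its log2 fold change was -0.30 (FDR 0.66), and without luminal duct replicate 3 it was -1.51. Stat5b followed the same order of libraries in duct, at 210.3 and 129.5 CPM, and measured 154, 117 and 121 CPM in TEB (-0.38 ± 0.23, FDR 0.425). Stat3 overlapped at 330 and 445 CPM in duct against 387, 415 and 394 CPM in TEB (0.04 ± 0.21, FDR 0.955). Socs2 measured 25.0 and 13.5 CPM in duct and 18.7, 10.3 and 9.36 CPM in TEB (-0.59 ± 0.36, FDR 0.43).

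The 2 luminal duct libraries differed from each other in content. Replicate 3 held 201 CPM of the 6 immune markers and 249.7 CPM of the 6 fibroblast markers, against 0.455 and 6.03 CPM in replicate 1, where 4 of the 6 immune markers were at 0. The 7 basal markers summed to 93.0 CPM in replicate 1 and 248 CPM in replicate 3, above the 14.7 to 27.3 CPM of the luminal TEB libraries, and 6 of the 7 were called lower in luminal TEB. The 6 mature luminal markers, Prlr among them, summed to 6461 and 3628 CPM in duct replicates 1 and 3. In TEB replicates 1, 2 and 3 they summed to 4735, 3363 and 3639 CPM. The 6 luminal progenitor markers summed to 745 and 862 CPM in duct and to between 376 and 478 CPM in TEB, without overlap. No gene of these 2 lists was called between luminal TEB and duct. The part of these differences in the members' values was not tested.

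**Figure D3:**
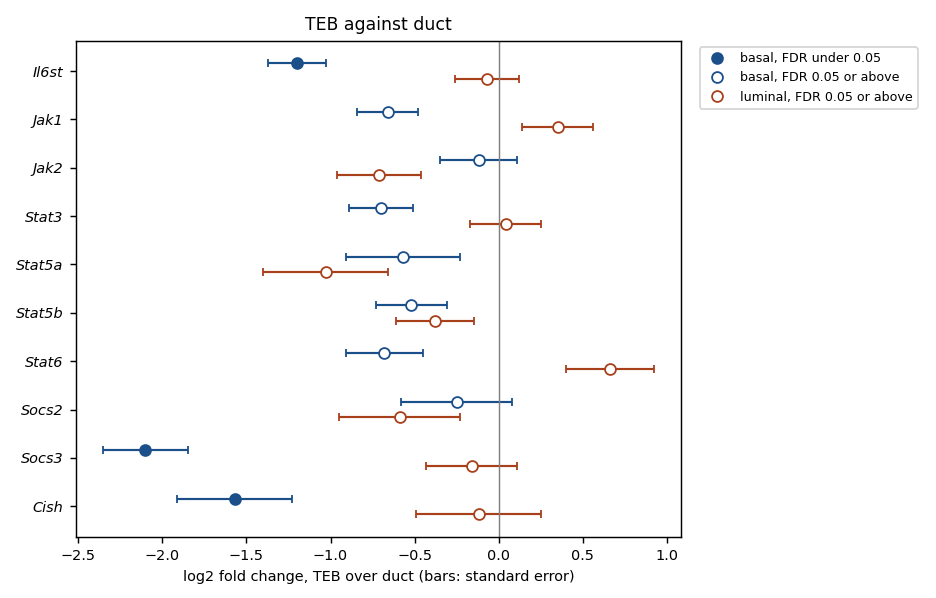
Log2 fold change of TEB over duct for each member in basal and in luminal cells, with bars of 1 standard error from the edgeR fit. Filled points have an FDR under 0.05. Only Il6st, Socs3 and Cish in basal cells are filled, and Jak1 and Stat6 lie on opposite sides of 0 in the basal and luminal fits.

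Whether the TEB to duct difference itself differed between the cell layers was tested by the interaction, coded as the basal difference minus the luminal difference. Socs3 was the only member called, at -1.94 ± 0.37 on the log2 scale (FDR 0.049), where 0.363% of all genes tested were called negative and 0.0806% positive. Its log2 fold changes of TEB against duct were -2.10 in basal and -0.16 in luminal cells. The call was close to the threshold and held in 8 of 23 alternatives, with FDRs from 3.95e-05 to 0.174, and leaving out any 1 library other than basal TEB replicate 2 or luminal duct replicate 1 took it above 0.05, with FDRs of 0.0564 to 0.174. The sign was negative in all 23. Il6st (-1.13 ± 0.26, FDR 0.0927), Stat6 (-1.34 ± 0.35, FDR 0.128), Jak1 (-1.01 ± 0.28, FDR 0.145) and Cish (-1.45 ± 0.51, FDR 0.225) had negative values past no threshold here. The likelihood ratio test and DESeq2 each called 4 members, Socs3 with Il6st, Stat6 and Jak1. They also called more genes of all 17370 tested, 629 and 696 against 77 by the main test. Leaving out basal TEB replicate 2 brought Il6st to an FDR of 0.0269 and Jak1 to 0.0445, and leaving out luminal duct replicate 1 brought Il6st to 0.0393, Jak1 to 0.0443 and Stat6 to 0.0423. The interaction shares all its libraries with the comparisons above and is not separate evidence.

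The next question was how the cell layers differed within ducts. Basal cells had more Socs3 and Il6st and less Jak2, Stat5a and Stat5b than luminal cells. These were 5 of the 10 members, 2 higher and 3 lower, where 12.6% of all genes tested were called higher and 9.71% lower. Libraries of the layers did not overlap for 6 members, with Socs2 as the sixth, against 24.8% of all genes tested lying entirely higher and 21.2% entirely lower in basal cells.

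The kinase and STATs of prolactin signalling had the larger values. Jak2 stood at 36.0 to 73.2 CPM in basal duct and at 179 and 190.4 CPM in luminal duct, a log2 fold change of -1.68 ± 0.25 (FDR 5e-04), and it passed in all 24 alternatives. The ratio of Jak1 to Jak2 in RPKM was between 1.90 and 4.15 in basal duct and between 0.616 and 0.874 in luminal duct. Luminal duct was the only group in which Jak2 exceeded Jak1 in its libraries. Stat5a was 3.45-fold lower in basal duct (-1.79 ± 0.37, FDR 0.00454), at 96.6 to 132 CPM against 526 and 228 CPM, and without luminal duct replicate 1 its value was -1.06 (FDR 0.0716). Stat5b was 2.21-fold lower (-1.14 ± 0.23, FDR 0.00326), at 71.8 to 83.8 CPM against 210.3 and 129.5 CPM. With scaling by library size alone its FDR was 0.0817. The ratio of Stat5a to Stat5b in RPKM lay between 1.80 and 2.21 in basal duct and between 2.46 and 3.5 in luminal duct.

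Il6st was 1.76-fold higher in basal duct, at 252 to 265 CPM against 160.4 and 134 CPM (0.81 ± 0.20, FDR 0.0107). Socs3 was 2.16-fold higher, at 904 to 1125 CPM against 538 and 409 CPM (1.11 ± 0.28, FDR 0.0128). Without luminal duct replicate 3 the value for Il6st was 0.69 (FDR 0.0755) and that for Socs3 was 0.93 (FDR 0.0924). Such a fit leaves 1 luminal duct library, which is assumed to vary like the other groups. Stat3 (-0.13 ± 0.21, FDR 0.686), Stat6 (-0.02 ± 0.25, FDR 0.979), Jak1 (0.04 ± 0.20, FDR 0.93) and Cish (0.13 ± 0.37, FDR 0.839) overlapped between the layers. Socs2 was higher in each basal duct library than in both luminal ones without passing the test (0.84 ± 0.38, FDR 0.133).

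In TEBs the layers differed in more of the members. Basal cells had less of all 6 JAKs and STATs among the 10, less Socs3 and Cish, and more Socs2, which makes 9 called members, 8 lower and 1 higher. The background was 11.8% of all genes tested called lower and 13.2% called higher. The members' median log2 fold change was -1.04 against 0.04 over all genes tested. Libraries of the layers did not overlap for any of the 10, where 27.2% of all genes tested lay entirely lower and 22.6% entirely higher in basal TEBs.

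Stat6 was 2.56-fold lower in basal TEB (-1.36 ± 0.23, FDR 0.000939), at 33.0 to 61.2 CPM against 127 to 138 CPM. Stat5b was 2.44-fold lower (-1.29 ± 0.21, FDR 0.000692), Jak2 2.13-fold lower (-1.09 ± 0.23, FDR 0.00437), Jak1 1.97-fold lower (-0.98 ± 0.18, FDR 0.0019) and Stat3 1.84-fold lower (-0.88 ± 0.19, FDR 0.00444). These 5 passed in all 24 alternatives. Stat5a was 2.51-fold lower (-1.33 ± 0.34, FDR 0.014), and this call was lost on removal of luminal TEB replicate 1 (FDR 0.0778) or of basal TEB replicate 3 (FDR 0.0512).

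The feedback genes split. Cish was 2.49-fold lower in basal TEB, at 17.1 to 42.0 CPM against 65.2 to 84.5 CPM (-1.32 ± 0.34, FDR 0.0133), and its FDR was 0.0561 without luminal TEB replicate 1. Socs3 was 1.77-fold lower, at 167 to 318 CPM against 361 to 492 CPM (-0.83 ± 0.24, FDR 0.025), the opposite direction to ducts. Removal of basal TEB replicate 1 or 3 gave FDRs of 0.0767 and 0.0779, and removal of luminal TEB replicate 1 or 3 gave 0.0801 and 0.125. Socs2 was 2.27-fold higher in basal TEB, at 24.0 to 32.4 CPM against 9.36 to 18.7 CPM (1.18 ± 0.33, FDR 0.0209). Removal of luminal TEB replicate 2 or 3 gave FDRs of 0.0985 and 0.105, and removal of basal TEB replicate 3 gave 0.0661. Il6st, the member not called, measured 87.3 to 134 CPM against 137 to 147 CPM (-0.32 ± 0.17, FDR 0.213).

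Other measures differed between the TEB layers as well. The 10 immediate early and stress response genes summed to between 5930 and 8373 CPM in basal TEB and to between 10959 and 13527 CPM in luminal TEB, with 5 called lower and 1 higher in basal cells. Mitochondrial transcripts took 4.34% to 4.77% of counts in luminal TEB libraries and 37.5%, 4.74% and 17.8% in basal TEB replicates 1, 2 and 3. The 6 fibroblast markers summed to between 226 and 406 CPM in basal TEB and to between 11.7 and 53.1 CPM in luminal TEB, with 1 called higher in basal cells. In ducts the stress response genes overlapped between layers, and the fibroblast markers summed to between 430.2 and 840 CPM in basal duct against 6.03 and 249.7 CPM in luminal duct. The part of these differences in the members' values was not tested.

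**Figure D4:**
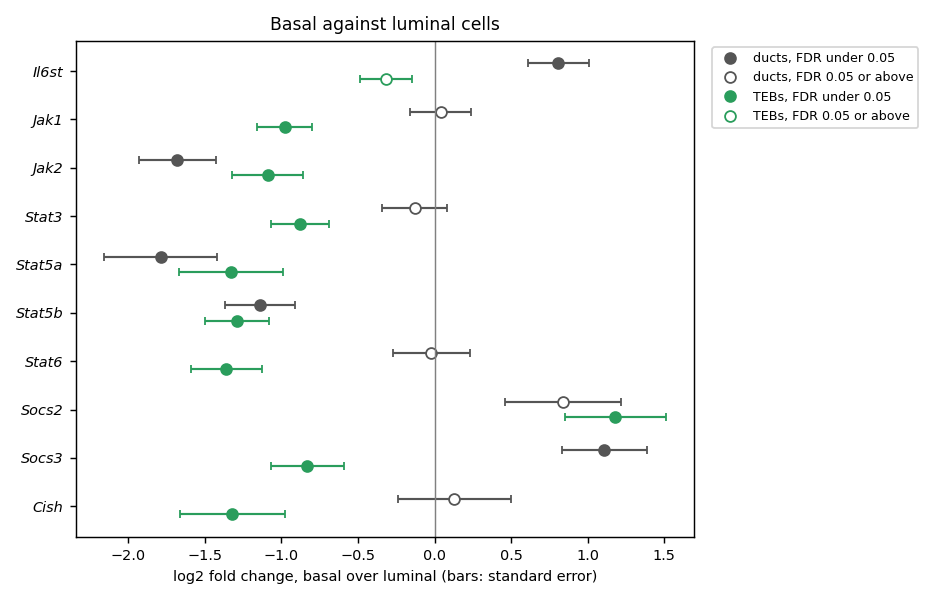
Log2 fold change of basal over luminal cells for each member in ducts and in TEBs, with bars of 1 standard error from the edgeR fit. Filled points have an FDR under 0.05. Jak2, Stat5a and Stat5b are filled left of 0 in both structures, and Socs3 is filled right of 0 in ducts and left of 0 in TEBs.

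The wider pathway was read from lists written from general knowledge. Of 25 receptors that couple to JAKs, 24 were tested. Against shares of 1.16% called lower and 0.167% called higher over all genes tested, 3 receptors were lower in basal TEBs than in basal ducts and none higher. The list median was -0.80, against -0.03 over all genes. The 3 were Lifr, which pairs with gp130 (-1.44 ± 0.23, FDR 0.00927), Il13ra1, a subunit of interleukin 13 receptors (-2.00 ± 0.32, FDR 0.00969), and the growth hormone receptor Ghr (-1.42 ± 0.29, FDR 0.0411). Lifr measured 286, 437 and 319 CPM in basal duct and 161, 129 and 94.9 CPM in basal TEB, so it separated the groups as Il6st did. Osmr, of the oncostatin M receptor, also separated them without a call (-1.23 ± 0.27, FDR 0.0508). Il6ra, of the interleukin 6 receptor, overlapped (-0.18 ± 1.42, FDR 0.983). Osmr and Il6ra were named outside the naming rule. In luminal cells edgeR called no receptor between TEB and duct, with 4 of the 24 at an unadjusted p under 0.05. Of all genes tested it called 1.41%, and 16.6% had such a p. The likelihood ratio test called no receptor and DESeq2 called 1, where they called 1006 and 1247 of all 17370 genes.

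Between layers, 1 of the 24 receptors was higher and 3 lower in basal cells in ducts, and 1 was higher and 4 lower in TEBs. Over all genes tested 22.3% were called in either direction in ducts and 25.1% in TEBs. The prolactin receptor Prlr, at 1674 to 2750 CPM in luminal duct and 1485 to 1721 CPM in luminal TEB, measured 3.97 to 17.6 CPM in basal duct and 6.57 to 14.7 CPM in basal TEB. Its log2 fold change of basal over luminal cells was -7.67 ± 0.62 in ducts (FDR 6e-06) and -7.44 ± 0.60 in TEBs (FDR 3.2e-06). Prlr is also one of the mature luminal markers. Ghr went the other way, higher in basal cells by 1.64 ± 0.34 in ducts (FDR 0.00442) and by 0.96 ± 0.29 in TEBs (FDR 0.03). Prlr and Jak2, Stat5a and Stat5b, which relay its signal, were thus all lower in basal cells in both structures.

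Of 16 cytokine ligands, 10 were tested, and edgeR called none between TEB and duct in either layer. In basal cells 2 had an unadjusted p under 0.05, with 1 called by the likelihood ratio test and 2 by DESeq2. In luminal cells none had, with 0 by both. Over all genes tested edgeR called 1.32% in basal and 1.41% in luminal cells, and 14.5% and 16.6% had such a p. The likelihood ratio test called 707 and 1006 of all 17370 genes, and DESeq2 called 874 and 1247. Lif, which encodes leukemia inhibitory factor, was lower in basal cells in ducts (-3.34 ± 0.57, FDR 0.00109) and in TEBs (-3.18 ± 0.54, FDR 0.000912). Il10 and Il6 were called higher in basal than luminal TEBs, but they were at or under 0.0381 CPM in each luminal TEB library, less than 3 counts a library, so no fold is given. Il6 was also at 0 in basal TEB replicate 3.

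Among other kinases and STATs, Jak3 (-2.19 ± 0.47, FDR 0.00497) and Stat2 (-1.47 ± 0.33, FDR 0.00734) were lower in basal cells in ducts. Both were also lower in basal cells in TEBs, with log2 fold changes of -3.55 ± 0.46 for Jak3 (FDR 0.000129) and -1.39 ± 0.31 for Stat2 (FDR 0.00544). Of 14 other inhibitors edgeR called none between TEB and duct. In basal cells 4 had an unadjusted p under 0.05, with 0 called by the likelihood ratio test and 2 by DESeq2. In luminal cells 1 had, with 1 called by each. Over all genes tested edgeR called 1.32% in basal and 1.41% in luminal cells, and 14.5% and 16.6% had such a p. The likelihood ratio test called 707 and 1006 of all 17370 genes, and DESeq2 called 874 and 1247. In basal against luminal cells 1 of the 14 was higher and 4 lower in ducts, and 1 was higher and 3 lower in TEBs, against the same 22.3% and 25.1% of all genes tested. The tyrosine phosphatases Ptpn6 (-1.79 ± 0.28, FDR 0.00067 in ducts and -2.74 ± 0.27, FDR 1.58e-05 in TEBs) and Ptpn1 (-1.29 ± 0.26, FDR 0.00366 in ducts and -1.90 ± 0.25, FDR 0.000117 in TEBs) were lower. Socs7 was higher (1.68 ± 0.32, FDR 0.00241 in ducts and 1.60 ± 0.27, FDR 0.000977 in TEBs).

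All 12 genes listed as targets of Stat3 were tested, and 4 fell in basal TEBs against basal ducts while none rose, with a list median of -1.12, where 1.16% of all genes tested were called lower and the median over all genes was -0.03. They include Bcl3, a cofactor of NF-kappaB (-3.06 ± 0.40, FDR 0.00395), Igfbp5, which binds insulin-like growth factors (-2.06 ± 0.29, FDR 0.00545), and Cebpd, a transcription factor of involution (-2.56 ± 0.40, FDR 0.00891). By DESeq2 7 of the 12 were called in basal cells and by the likelihood ratio test 6, where they called 874 and 707 of all 17370 genes. In luminal cells the list median was -0.98, against 0.04 over all genes tested. Igfbp5 fell there (-2.33 ± 0.31, FDR 0.00864) as the single call of the quasi-likelihood test, where 0.771% of all genes tested were called lower and 0.639% higher. There 6 of the 12 had an unadjusted p under 0.05, the likelihood ratio test called 5 and DESeq2 called 6. Over all genes tested 16.6% had such a p, and these tests called 1006 and 1247 of 17370. Between layers the list was mixed, with 5 higher and 2 lower in basal cells in ducts and the same numbers in TEBs. Of all genes tested 12.6% were called higher and 9.71% lower in ducts, and 13.2% and 11.8% in TEBs. Hp, encoding haptoglobin, was lower in both (-8.46 ± 0.84, FDR 2.42e-05 in ducts and -6.87 ± 0.78, FDR 4.39e-05 in TEBs). Hp was near the floor in basal cells, at 0.0798 to 0.553 CPM in duct and 0 to 0.526 CPM in TEB, so the size of its folds is uncertain. Igfbp5 was higher in both (2.50 ± 0.34, FDR 0.000253 in ducts and 2.77 ± 0.30, FDR 2.84e-05 in TEBs). Myc was also higher in both (2.43 ± 0.30, FDR 0.000104 in ducts and 1.47 ± 0.25, FDR 0.000803 in TEBs), and Bcl3 was lower in both (-2.79 ± 0.41, FDR 0.000411 in ducts and -5.55 ± 0.45, FDR 3.2e-06 in TEBs). The Myc value in TEBs and the Bcl3 value in ducts fell outside the naming rule and were added after their values were seen.

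Of 10 genes listed as targets of Stat5, 8 were tested. Ccnd1, the cell cycle regulator cyclin D1, was the single call of the quasi-likelihood test between TEB and duct, higher in basal TEBs (1.73 ± 0.23, FDR 0.00374). In that comparison 0.167% of all genes tested were called higher and 1.16% lower. The inhibitor Cish, another gene known to be induced by Stat5, was lower in basal TEBs. The list median in basal cells was 2.06, against -0.03 over all genes tested. Of the 8, 3 had an unadjusted p under 0.05, with 3 called by the likelihood ratio test and 2 by DESeq2. Over all genes tested 14.5% had such a p, and these tests called 707 and 874 of 17370. Csn1s1, Csn2 and Tnfsf11 were near the floor, with means of 0.0732, 0 and 0.00855 CPM in basal duct. Their means in basal TEB were 2.73, 0.0772 and 0.105 CPM. Bcl6, Elf5 and Igf1 had lower means in basal TEB. Csn3, a milk protein gene well above the floor, measured 16.6 to 196 CPM in basal duct and 299 to 532 CPM in basal TEB. Its means were 77.8 and 408 CPM, and the quasi-likelihood test did not call it. The list thus moved in both directions, and its median is not read as a typical fold. These genes were named for their levels, outside the naming rule. In luminal cells edgeR called none of the 8, with 2 at an unadjusted p under 0.05. The likelihood ratio test and DESeq2 each called 1, and over all genes they called 1006 and 1247 of 17370. Of all genes tested edgeR called 1.41% there, and 16.6% had an unadjusted p under 0.05. In basal against luminal cells 3 of the 8 were lower in ducts and 2 in TEBs, against 9.71% and 11.8% of all genes tested, among them Ccnd1 (-2.91 ± 0.25, FDR 8.72e-06 in ducts and -2.14 ± 0.23, FDR 2.83e-05 in TEBs) and Elf5, a transcription factor of luminal progenitors that is also one of the luminal progenitor markers (-6.44 ± 1.24, FDR 0.00265 in ducts and -5.83 ± 1.22, FDR 0.00384 in TEBs). Elf5 was near the floor in basal cells, at 0.0257 to 2.43 CPM in duct and 0 to 1.85 CPM in TEB, so the size of its folds is uncertain. The milk protein gene Csn1s1 was called lower in basal than in luminal duct (FDR 0.0169). It had 9 counts over the 3 basal duct libraries, so no fold is given. In the interaction edgeR called none of the genes of the 5 lists counted above. Between 0 and 4 of a list had an unadjusted p under 0.05. The likelihood ratio test called between 0 and 3 of a list and DESeq2 between 0 and 2. Over all genes tested edgeR called 0.443%, 14.7% had such a p, and these tests called 629 and 696 of 17370.

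Among 7924 genes with a symbol and enough expression, the most similar pattern to each member was found by the mean absolute difference of log2 CPM over the 11 libraries after each gene was centred on its own mean. Stat3 was closest to Cyb5r4 (0.099) and Macc1 (0.119), and Jak1 to Ctnnd1 (0.104) and Cdc42bpb (0.111). Socs3 had more distant neighbours, Pbxip1 (0.208) and Rras (0.248), while Cish was nearest to Mob3c (0.18) and Mt1 (0.204) and Socs2 to Anxa6 (0.189) and S100a10 (0.209). Il6st was closest to Med13l (0.144) and Hps3 (0.153), Jak2 to Hdac5 (0.16) and Dlg3 (0.165), and Stat6 to Vps13b (0.126) and Traf6 (0.139). Stat5a was closest to Hk2 (0.193) and Gng12 (0.213), and Stat5b to Ptgr2 (0.142) and Aldoa (0.152). No member was the nearest or next nearest gene to another member.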

How the data were processed

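The authors deposited read counts per gene, which they made by aligning 80 bp paired-end reads to mm10 and counting with featureCounts per the labels and the study's methods. The counts were deposited without normalization, and 25275 of 27179 Entrez identifiers matched a symbol. Genes were kept by filterByExpr at a minimum count of 10 and a minimum total of 15, and counts were scaled by TMM and tested with the quasi-likelihood test of edgeR 4.0.16 (R 4.3.3) in 1 model of 4 groups over all 11 libraries, with Benjamini-Hochberg adjustment over 17370 genes. The standard error is the log2 fold change over the root of its F statistic. DESeq2 1.42.0 and limma 3.58.1 served as alternatives. CPM on a log2 scale used a prior count of 2. The procedure was run on simulated counts that gave every gene the same spread and placed changes in basal TEBs alone. That run does not cover the real differences in spread between genes, and its result is not given here. The genes and lists were chosen with earlier results of these data known. Text names all 10 members, at most 3 genes per list and comparison by lowest FDR, and always Prlr and Ghr. Counts over the list of other JAKs and STATs are not reported here.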

Additional observations from a re-analysis of the deposited data

Results flagged for a closer look

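Socs3 was marked because its TEB to duct difference differed between basal and luminal cells by a test of the difference itself, with an interaction log2 fold change of -1.94 (edgeR FDR 0.049). Jak1 and Stat6 were marked because all basal TEB libraries lay below all basal duct libraries while all luminal TEB libraries lay above both luminal duct libraries. The difference was tested for each and did not pass, with an interaction log2 fold change of -1.01 for Jak1 (FDR 0.145) and -1.34 for Stat6 (FDR 0.128).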

How the results depend on the processing

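Of 50 values (10 members in 5 comparisons), 18 passed the threshold, of which 6 passed in every alternative and 18 kept their sign in every alternative. The other 32 include 26 that passed in no alternative. Scaling by library size alone moved the median of all genes by -0.13 and 0.38 on the log2 scale for TEB against duct in basal and luminal cells, by 0.11 and -0.39 between the layers of ducts and of TEBs and by -0.50 for the interaction. The share of calls that were higher was then 1.75% against 12.6%, 50.0% against 45.3%, 62.0% against 56.5%, 37.2% against 52.8% and 6.67% against 18.2%. Over the alternatives the count of all called genes ran from 57 to 874 (main count 230), 10 to 1305 (245), 2728 to 5147 (3878), 3048 to 7140 (4354) and 7 to 753 (77). The causes were not tested.

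For TEB against duct in basal cells, 3 members were called, 0 with library size alone and 5 with the likelihood ratio test and with DESeq2. For basal against luminal cells in ducts the count of 5 was 2 with library size alone, 3 at an FDR of 0.01 and 3 to 5 with a library left out, and in TEBs the count of 9 was 5 at an FDR of 0.01. The 1 call of the interaction was 0 with upper-quartile scaling, library size alone, a mean CPM of at least 1, mitochondrial genes removed, both libraries of highest mitochondrial share removed, and an FDR of 0.01, was 4 with the likelihood ratio test and with DESeq2, and ran from 0 to 4 with a library left out. Replicate numbers are shared across groups, and the labels do not say whether a number marks a shared pool. Of 15 pairs of same-numbered libraries 4 deviated together (correlation above 0.1), with a median of 0.0689 and a range of -0.0677 to 0.163. Among pairs with different numbers 2 of 30 did so, with a median of -0.0264. Same-numbered libraries deviated together more often, but deviations were taken from each group's mean and cancel within a group. Values of same-numbered and other pairs are therefore tied to each other, and their contrast cannot settle whether a number marks a shared pool. The main model did not take same-numbered libraries as pairs. With the replicate number as a block the interaction called 0 members, Cish in basal cells had an FDR of 0.0702, and Stat3 for TEB against duct in luminal cells and Jak1 in ducts turned to -0.008 and -0.022.

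The values that turned sign were all uncalled, and fits without a luminal duct library leave 1 in that group, which is assumed to vary like the others. With library size alone these were, for TEB against duct in luminal cells, Il6st (0.301), Socs3 (0.205) and Cish (0.295), with Stat6 in ducts (0.075) and Socs2 in the interaction (-0.167). Stat3 in luminal cells was -0.029 with DESeq2 size factors and with DESeq2 and -0.008 with upper-quartile scaling. With sample quality weights in limma voom, Jak1 in ducts was -0.061 and Stat5b in the interaction 0.006, and with mitochondrial genes removed Stat6 in ducts was 0.004. Without both libraries of highest mitochondrial share, Cish in luminal cells was 0.214, Jak1 in ducts -0.156, Stat3 in ducts 0.099 and Stat5b in the interaction 0.27. With a library left out, values for TEB against duct ran from -0.402 to 0.084 for Jak2 in basal cells and, in luminal cells, from -0.195 to 0.065 for Il6st, -0.158 to 0.274 for Stat3, -0.685 to 0.017 for Stat5b, -0.344 to 0.054 for Socs3 and -0.378 to 0.197 for Cish. Between layers in ducts they ran from -0.159 to 0.258 for Jak1, -0.335 to 0.097 for Stat3, -0.25 to 0.261 for Stat6 and -0.127 to 0.447 for Cish, and in the interaction from -0.265 to 0.943 for Stat5a, -0.535 to 0.166 for Stat5b and -0.176 to 0.719 for Socs2.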
